A study of Danio rerio with 25 samples.

Results

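The genes described here are 45 named regulators and components of the cell cycle and of DNA replication, from pcna, the sliding clamp of DNA polymerase, to anln, a scaffold of the cytokinetic ring. Their IDs were found by matching the names, ignoring case. The names matched 48 Ensembl gene IDs of the 31901 in the count table, because mcm6, rrm2 and ccnd2a each cover 2 IDs. The name table drops the paralog letter, so which of the CCND2 IDs is ccnd2a is uncertain. Whether the IDs of a pair are similar enough to share reads was not tested, and their values are uncertain for that reason. The set was split into 26 IDs of G1 and S phase (G1-S), which cover replication and entry into the cycle, and 22 IDs of G2 phase and mitosis (G2-M).

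All libraries came from adult zebrafish hearts carrying the transgenes sox10:CreERT2 and, as the reporter, vmhcl:loxP-tagBFP-loxP-mCherry-NTR. The inducible Cre is driven by the neural crest gene sox10, and the reporter, driven by vmhcl, turns from blue to red on recombination. By this design red marks cells in which the reporter had recombined and blue those in which it had not, and every group carried both transgenes. Below, red and blue name the gate through which a cell was sorted, and recombination in the sorted cells was not tested. Tubes of 20 cells were sorted from hearts after cryoinjury, a freezing lesion, or from uninjured hearts, through a red (RFP) or a blue (BFP) gate. They gave 12 libraries of red cells after cryoinjury (CI_RFP), 3 of blue cells after cryoinjury (CI_BFP), 6 of red cells from uninjured hearts (UN_RFP) and 4 of blue cells from uninjured hearts (UN_BFP). The labels used here give no age, tamoxifen schedule or time after injury, and no animal, sort or day for a tube. The p-values therefore measure the spread between libraries, which may be technical.

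Progress through the cell cycle is driven by cyclins that activate their partner kinases in turn: D cyclins in G1, E cyclins at the entry to S phase, and A and B cyclins with cdk1 on the way into mitosis. Replication origins are licensed in G1 by loading of the MCM helicase, and mitotic exit depends on the anaphase promoting complex with its activator cdc20. Zebrafish replace lost heart muscle after injury through division of cardiomyocytes that were already present, and most cardiomyocytes of an uninjured adult heart are not in the cycle.

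Total counts per library ran from 5644279 to 11981012, while the number of genes with at least 1 count ran from 1226 to 15380. Under 6000 genes were detected in 2 CI_RFP and 3 UN_RFP libraries. Cardiomyocyte markers were present in every library, with summed levels, in counts scaled to library size by TMM (CPM), from 1802 to 314300 CPM in red cells after injury and from 10330 to 185000 CPM in uninjured red cells. In blue cells the sums ran from 8506 to 17360 CPM after injury and from 1959 to 21380 CPM without it. The medians were 44610 CPM in CI_RFP and 50390 CPM in UN_RFP, against 10890 CPM in CI_BFP and 13130 CPM in UN_BFP. Leukocyte markers, 20 IDs of which the lysozyme gene lyz was at 0 everywhere, summed to between 0.608 and 8661 CPM in CI_RFP and to between 0 and 7817 CPM in UN_RFP. They summed to between 2981 and 18070 CPM in CI_BFP and to between 189.7 and 16350 CPM in UN_BFP. Tubes of both gates thus held them, but at unlike medians: 159.7 CPM in CI_RFP and 477 CPM in UN_RFP, against 10580 CPM in CI_BFP and 2311 CPM in UN_BFP. Fibroblast markers, 13 IDs such as collagen genes, had median sums of 5722 CPM in CI_RFP (0 to 43220) and 26.5 CPM in UN_RFP (0 to 2391). In CI_BFP the median was 3876 CPM and in UN_BFP 4266 CPM. Endothelial markers summed to between 17.2 and 1521 CPM over all libraries. Their medians were 164.9 CPM in CI_RFP and 223.3 CPM in UN_RFP, against 583.8 CPM in CI_BFP and 1232 CPM in UN_BFP. With bulk tubes of this kind, fewer cells of a type and less RNA per cell cannot be told apart.

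The number of G2-M IDs detected differed widely between tubes after cryoinjury, of either gate, and was 6 or fewer in every uninjured tube. The median was 6 IDs in both CI_RFP and CI_BFP, 1 in UN_RFP and 2 in UN_BFP, and 13 or more were found in 4 of the 12 CI_RFP libraries and in no other library. Of the 22 G2-M IDs, the 12 CI_RFP libraries held 15, 8, 13, 8, 2, 14, 1, 2, 4, 4, 3 and 17, in the order of replicates 1 to 12. The 6 UN_RFP libraries held 1, 1, 2, 2, 0 and 1. The 3 CI_BFP libraries held 8, 1 and 6, and the 4 UN_BFP libraries 3, 1, 1 and 6. At least 8 G2-M IDs were detected in 6 of 12 CI_RFP and in 1 of 3 CI_BFP libraries, and in no uninjured library. The groups overlapped at their low ends, since 3 CI_RFP libraries held only 1 or 2 of these IDs.

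The number of genes detected at all varied with the groups as well, and its part in these counts was not tested. Replicate 6 of UN_RFP, with 11057 genes detected, held 1 G2-M ID, whereas replicate 12 of CI_RFP, with 10261 genes detected, held 17. Other CI_RFP tubes of like complexity held few, with 1 ID in replicate 7 (10879 genes detected), 4 in replicate 9 (11802 genes) and 3 in replicate 11 (14249 genes). Thinning every library to 5644279 counts left medians of 5.5 G2-M IDs in CI_RFP and 1 in UN_RFP. Without the libraries under 6000 detected genes, a setting chosen after the data were seen, the medians were 8 in 10 CI_RFP libraries and 1 in 3 UN_RFP libraries.

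G1-S genes were detected more widely. The CI_RFP libraries held a median of 9.5 of the 26 G1-S IDs (lowest 4, highest 17), and the UN_RFP libraries a median of 4.5 (lowest 0, highest 8). The CI_BFP libraries held 16, 7 and 17, and the UN_BFP libraries 10, 5, 5 and 9. Every pair of groups overlapped, and 2 UN_RFP libraries held none of these genes. Without the libraries under 6000 detected genes the medians were 10.5 in 10 CI_RFP libraries and 8 in 3 UN_RFP libraries. The UN_RFP median thus moved from 4.5 to 8 without its tubes of few genes, whose part in the difference was not tested.

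**Figure D1:**
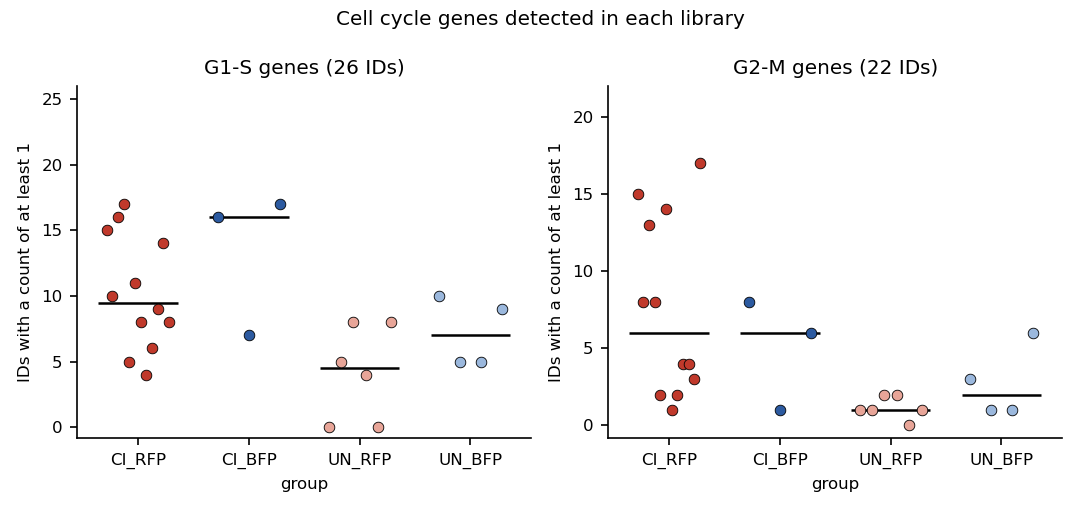
Number of G1-S IDs (left, of 26) and G2-M IDs (right, of 22) with a count of at least 1 in each library, by group. Each point is 1 library and each line is the group's median. In the right panel 6 of the 12 CI_RFP points lie at 8 or above, and the 6 UN_RFP points lie between 0 and 2.

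Of the 48 IDs, 2 had no count in any library: e2f1, a transcription factor of G1-S genes, and foxm1, a transcription factor of G2-M genes. A further 12 did not pass the filter on low counts and were not tested. Of the 22 G2-M IDs, 19 were absent from all 6 UN_RFP libraries, 11 from the UN_BFP, 10 from the CI_BFP and 1 from the CI_RFP libraries. Of the 26 G1-S IDs, the same counts were 12, 11, 6 and 2. Absence from a whole group also depends on its number of libraries and on how many genes these detect. The groups had 12 (CI_RFP), 6 (UN_RFP), 4 (UN_BFP) and 3 (CI_BFP) libraries. Their median library detected 35.7%, 21.3%, 29.2% and 30.5% of all IDs, in the same order. The part of either in these counts was not tested. No count fell on 10 G2-M IDs in any of the uninjured libraries, of either gate: ccna2, cdk1, top2a, bub1, cenpf, ube2c, kif11, hmmr, anln and foxm1. The 6 G1-S IDs without a count there were mcm2, mcm3, mcm6 (ENSDARG00000033231), tyms, cdk4 and e2f1. An ID at 0 over a whole group could still have been present below 3 counts over the group, a limit of 0.0313 CPM for CI_RFP, 0.107 CPM for CI_BFP, 0.0589 CPM for UN_RFP and 0.0641 CPM for UN_BFP. These limits cover counting error only, because without molecular identifiers several reads can stem from 1 molecule.

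**Figure D2:**
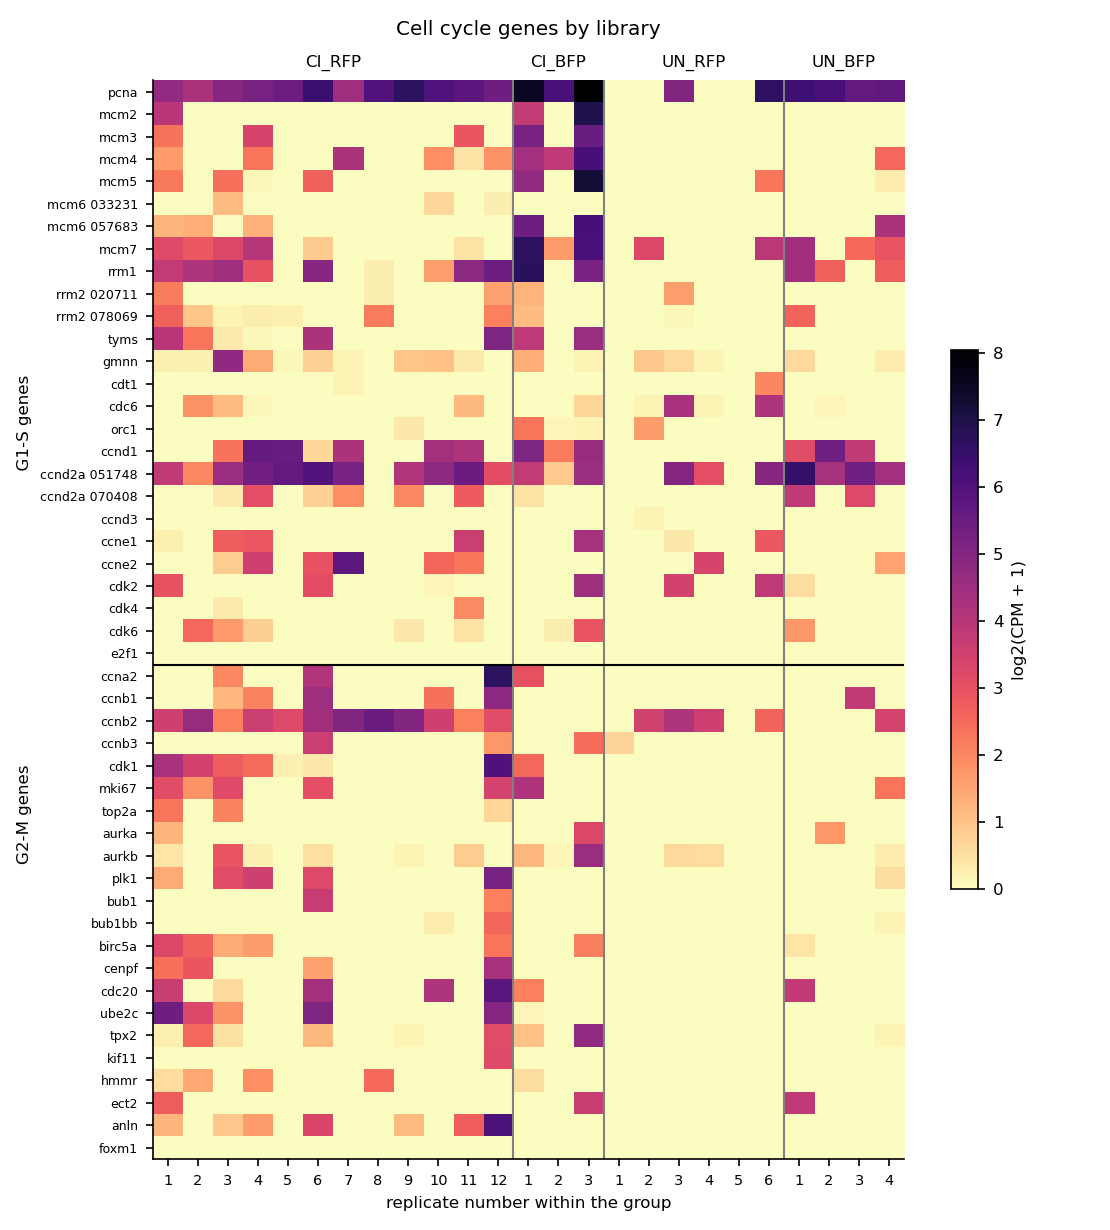
Level of each of the 48 IDs, as log2(CPM + 1) on TMM-scaled CPM, in each of the 25 libraries. Columns are libraries by group with their replicate number, rows are genes with G1-S above and G2-M below the line, and names shared by 2 IDs carry the last 6 digits of the ID. Replicates 1, 2, 3, 4, 6 and 12 of CI_RFP hold 8 or more G2-M IDs, and the MCM rows are darkest in replicates 1 and 3 of CI_BFP.

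The sliding clamp pcna (ENSDARG00000054155) was detected in every library of 3 groups. Its level ran from 17.6 to 104.7 CPM in the 12 CI_RFP libraries, with a median of 42.4, and reached 180.0, 70.0 and 263.5 CPM in CI_BFP. In UN_BFP it was 80.9, 70.2, 48.8 and 51.0 CPM. In UN_RFP it was 0 in 4 of 6 libraries, 31.0 in replicate 3 and 101.8 in replicate 6. The 2 UN_RFP libraries with pcna lay within the range of CI_RFP, and the other 4 below it. Means ± SD were 48.9 ± 26.7 (n = 12) in CI_RFP and 22.1 ± 41.0 (n = 6) in UN_RFP, and edgeR's quasi-likelihood test gave a log2 fold change of 1.14 ± 1.16 (SE) with an adjusted p of 0.828. Of the 4 UN_RFP libraries at 0, 3 were those with under 6000 detected genes.

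The replicative helicase genes mcm2 to mcm7, which unwind DNA ahead of the fork, had their highest levels in 2 of the 3 CI_BFP libraries. mcm5 (ENSDARG00000019507) was at 24.9, 0 and 150.5 CPM in CI_BFP. In CI_RFP its lowest level and its median were 0 and its highest was 5.31 CPM. It was detected in 1 UN_RFP library, at 3.86 CPM, and in 1 UN_BFP library, at 0.233 CPM. mcm2 (ENSDARG00000102798) was at 12.5, 0 and 123 CPM in CI_BFP, at 14.5 CPM in 1 CI_RFP library and at 0 in the other 11 and in every uninjured library. mcm6 (ENSDARG00000057683) was at 42.5, 0 and 72.4 CPM in CI_BFP, at no more than 1.58 CPM in CI_RFP, at 0 in UN_RFP and at 17.2 CPM in 1 UN_BFP library.

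mcm7 was the most widely found of them in uninjured tubes, at 8.68 and 14 CPM in 2 UN_RFP and up to 20.4 CPM in 3 UN_BFP libraries, beside 104.1, 2.23 and 71.2 CPM in CI_BFP and at most 15.3 CPM in CI_RFP. mcm3 was at 36.9, 0 and 44.4 CPM in CI_BFP, in 3 CI_RFP libraries at up to 9.46 CPM, and in no uninjured library. All 6 MCM names were detected in replicates 1 and 3 of CI_BFP and 2 of the 6 in its replicate 2. In CI_RFP only replicate 1 held all 6, and the others held 0 to 5. The UN_RFP libraries held 0 to 2 and the UN_BFP libraries 0 to 4. Summed over the MCM IDs, the CI_BFP libraries stood at 241, 15.7 and 534 CPM against at most 34.0 CPM in any CI_RFP library, so replicate 2 of CI_BFP lay within the range of CI_RFP and replicates 1 and 3 above it. The second mcm6 ID (ENSDARG00000033231) had 15 counts in all, in 3 CI_RFP libraries.

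Of the genes of nucleotide synthesis, rrm1 and tyms were found in red cells after injury and in no uninjured red tube. rrm1 (ENSDARG00000014017), the large subunit of ribonucleotide reductase, was detected in 9 of 12 CI_RFP libraries, with a median of 9.75 and a highest level of 42.9 CPM, and was at 0 in all 6 UN_RFP libraries. In CI_BFP it was at 106, 0 and 35.2 CPM and in UN_BFP at 20.6, 5.43, 0 and 5.70 CPM. tyms (ENSDARG00000042894), thymidylate synthase, was detected in 6 CI_RFP libraries, up to 33.7 CPM, and in 2 CI_BFP libraries at 13.8 and 22.3 CPM, and in none of the uninjured libraries. The 2 IDs of rrm2, the small subunit, stayed at or under 5.45 CPM in every library.

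Of the licensing genes, gmnn, whose product geminin blocks relicensing, was found in 10 of 12 CI_RFP libraries but above 2 CPM only in replicate 3, at 26.3 CPM. cdc6, which loads the helicase, went the other way. It was at 18.7 and 16.9 CPM in replicates 3 and 6 of UN_RFP and at no more than 2.54 CPM in any other library, so its mean was 5.97 ± 9.17 CPM (SD, n = 6) in UN_RFP and 0.421 ± 0.815 (n = 12) in CI_RFP. cdt1 and orc1 had counts in 2 and 5 libraries, none above 4.1 CPM.

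Among the D cyclins, which start the cycle in G1, ccnd1 (ENSDARG00000101637) was detected in 7 of 12 CI_RFP libraries, with a median of 2.30 and a highest level of 48.1 CPM, in all 3 CI_BFP libraries (33.2, 3.60 and 23.2 CPM) and in 3 of 4 UN_BFP libraries (7.93, 41.1 and 13.2 CPM, and 0 in replicate 4). It was at 0 in all 6 UN_RFP libraries. The CCND2 ID ENSDARG00000051748 was detected in 11 of 12 CI_RFP libraries (median 24.9, highest 63.7 CPM), 3 of 6 UN_RFP libraries (up to 30.5 CPM) and all blue libraries, at 12.6, 0.848 and 21.9 CPM in CI_BFP and 92.9, 19.1, 40.6 and 20.1 CPM in UN_BFP. Its groups overlapped throughout. The other CCND2 ID (ENSDARG00000070408) stayed at or under 13.2 CPM. The D cyclin partners were scarce: cdk4 had counts in 2 CI_RFP libraries, up to 2.80 CPM, and cdk6 in 5 CI_RFP, 2 CI_BFP and 1 UN_BFP library, up to 6.62 CPM. ccnd3 had a count in 1 library. ccne2, a cyclin of S phase entry, had 1 high value, 53.6 CPM in replicate 7 of CI_RFP, and the group's mean of 6.74 CPM was 2.48 without it. ccne1, the other E cyclin, was found in 4 CI_RFP, 1 CI_BFP and 2 UN_RFP libraries, up to 19 CPM in replicate 3 of CI_BFP. Their kinase cdk2 was highest in the same library, at 21.2 CPM, and stood at 9.78 and 13.3 CPM in replicates 3 and 6 of UN_RFP and at no more than 7.54 CPM in 3 CI_RFP libraries.

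**Figure D3:**
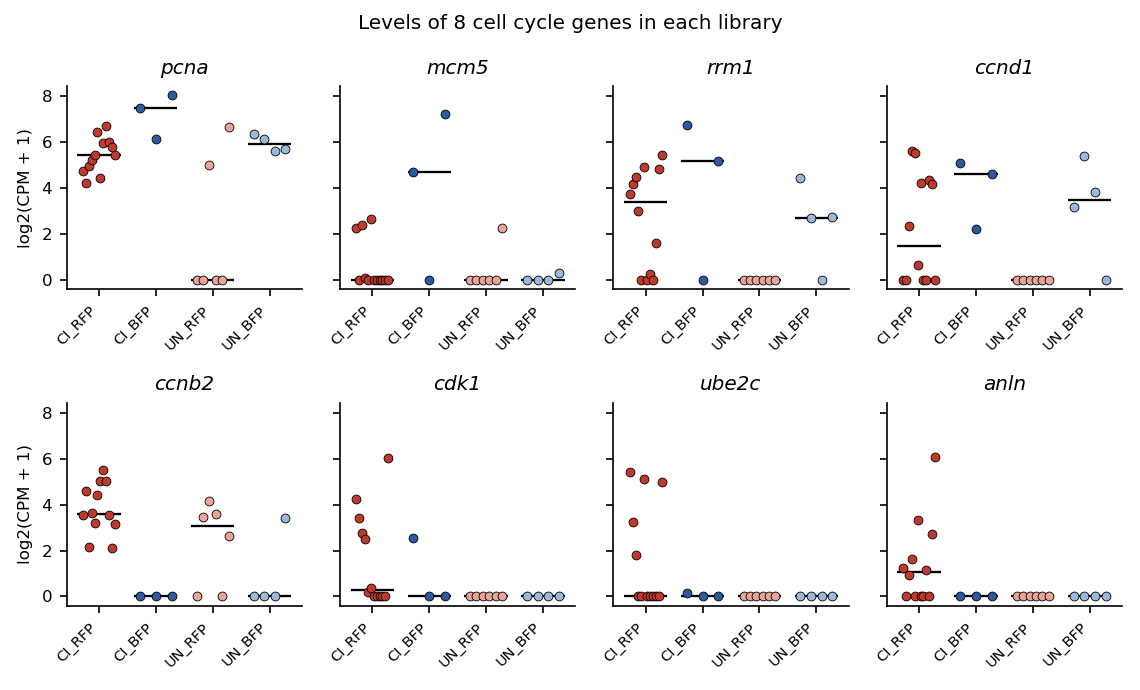
Levels of 8 genes, as log2(CPM + 1) on TMM-scaled CPM, in each library by group, with G1-S genes in the upper row and G2-M genes in the lower row. Each point is 1 library and each line is the group's median. rrm1 and ccnd1 are at 0 in all 6 UN_RFP libraries, ccnb2 is above 0 in all 12 CI_RFP and at 0 in all 3 CI_BFP libraries, and cdk1, ube2c and anln are at 0 in all uninjured libraries.

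Among G2-M genes, ccnb2 (ENSDARG00000036180), a B cyclin that activates cdk1, differed from the rest in being present in every CI_RFP library. Its level there ran from 3.31 to 44.2 CPM, with a median of 11. It was at 0 in all 3 CI_BFP libraries. In UN_RFP it was detected in 4 of 6 libraries, with a median of 7.67 and a highest level of 16.9 CPM, and in UN_BFP it was at 0 in 3 libraries and at 9.53 CPM in replicate 4. CI_RFP and CI_BFP did not overlap for ccnb2, and CI_RFP and UN_RFP did. Of all genes tested, 0.693% were higher in every CI_RFP library than in any CI_BFP library.

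The remaining G2-M cyclins and their kinase were found in fewer tubes. cdk1 (ENSDARG00000087554), the kinase of mitotic entry, was detected in 7 of 12 CI_RFP libraries, at 18, 9.82, 5.74 and 4.59 CPM in replicates 1 to 4, 0.146 and 0.279 CPM in replicates 5 and 6, and 65.1 CPM in replicate 12. It was at 4.77 CPM in replicate 1 of CI_BFP and at 0 in the other blue libraries and in UN_RFP. Its CI_RFP mean of 8.64 CPM was 3.51 without replicate 12. ccna2 (ENSDARG00000011094), the A cyclin of S and G2 phase, was at 3.0, 16.2 and 105 CPM in replicates 3, 6 and 12 of CI_RFP and at 7.05 CPM in replicate 1 of CI_BFP, and at 0 elsewhere. Its CI_RFP mean was 10.3 CPM with replicate 12 and 1.75 without it. ccnb1 was found in 5 CI_RFP libraries, up to 27.0 CPM, and in 1 other library, replicate 3 of UN_BFP, at 12.9 CPM. ccnb3 was found in 4 libraries, up to 11 CPM.

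mki67 (ENSDARG00000091150), the gene of the Ki-67 antigen that coats mitotic chromosomes, was detected in 5 of 12 CI_RFP libraries, at 7.66, 2.53, 8.08, 7.4 and 9.52 CPM in replicates 1, 2, 3, 6 and 12. It was at 16.6 CPM in replicate 1 of CI_BFP, at 3.95 CPM in replicate 4 of UN_BFP and at 0 in UN_RFP. top2a, the DNA topoisomerase that untangles replicated chromosomes, was found in 3 CI_RFP libraries, up to 3.91 CPM, and nowhere else. The mitotic kinases differed in which tubes held them. plk1 (ENSDARG00000058471) was at 1.70, 7.69, 10.7, 8.38 and 36.3 CPM in replicates 1, 3, 4, 6 and 12 of CI_RFP and was otherwise seen only at 0.465 CPM, in replicate 4 of UN_BFP. aurkb and aurka, the Aurora kinases, were highest in replicate 3 of CI_BFP, at 22.3 and 8.70 CPM, with at most 6.65 and 1.36 CPM in CI_RFP. tpx2, which activates aurka on the spindle, was also highest there, at 25.4 CPM against at most 7.94 CPM in CI_RFP.

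The mitotic exit genes were uneven between tubes as well. ube2c (ENSDARG00000114670), the ubiquitin-conjugating enzyme of the anaphase promoting complex, was at 41.7, 8.55, 2.48, 33.7 and 30.9 CPM in replicates 1, 2, 3, 6 and 12 of CI_RFP. Its only other count was 1 read in replicate 1 of CI_BFP. cdc20, the activator of that complex, was found in 5 CI_RFP libraries, up to 56.5 CPM in replicate 12, and also at 3.34 CPM in 1 CI_BFP and 12.7 CPM in 1 UN_BFP library. anln (ENSDARG00000060917) was found in 7 CI_RFP libraries, with a median of 1.07 CPM and 66.7 CPM in replicate 12, and in no library of the other groups. Its mean of 7.24 CPM was 1.83 without replicate 12. The other cytokinesis gene, ect2, was found in 1 library each of CI_RFP, CI_BFP and UN_BFP, at 5.79, 11.6 and 13.4 CPM.

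Kinetochore and checkpoint genes were sparser. cenpf was found in 4 CI_RFP libraries, up to 18.5 CPM in replicate 12, and nowhere else. birc5a, of the chromosomal passenger complex, was found in 5 CI_RFP libraries, up to 8.85 CPM, and in 1 library of each blue group at 3.43 and 0.339 CPM. bub1 was found in 2 CI_RFP libraries and bub1bb in 3 libraries, at 11.9 CPM or less. The spindle motor gene kif11 was found only in replicate 12 of CI_RFP, at 8.14 CPM from 41 reads. hmmr was found in 4 CI_RFP libraries and 1 CI_BFP library, up to 4.66 CPM.

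Replicate 12 of CI_RFP therefore held the highest TMM-scaled level of 9 of the 21 detected G2-M IDs, and CI_RFP libraries together of 16. This replicate had the lowest TMM factor of any library, 0.465, which raises its CPM. Scaled by total counts alone, its G2-M sum was 211 CPM, against 191.1 CPM in replicate 6. With TMM these sums were 454 and 162.4 CPM. How many IDs were highest in replicate 12 without TMM is not given here. Of the 25 detected G1-S IDs, 12 were highest in a CI_BFP library, 9 of them in replicate 3, and 8 in a CI_RFP library. Summed over all G2-M IDs, CI_RFP ran from 8.44 to 454 CPM with a median of 41.0, and the median without replicate 12 was 37.0. UN_RFP ran from 0 to 17.5 CPM with a median of 7.67. CI_BFP stood at 34.7, 0.106 and 75.9 CPM and UN_BFP at 26.5, 2.33, 12.9 and 14.4 CPM. Summed over all G1-S IDs, CI_BFP stood at 595, 90.5 and 948 CPM and CI_RFP ran from 57.8 to 219 CPM, with a median of 132. UN_RFP ran from 0 to 189 CPM and UN_BFP from 108 to 244.5 CPM.

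Marker levels in the same tubes differed widely. Replicate 12 of CI_RFP had the highest summed level of cardiomyocyte markers of any library, 314300 CPM, and counts for 2 of the 20 leukocyte IDs, coro1a and cd74a, at 10.3 CPM in all, with the pan-leukocyte gene ptprc, lcp1 and spi1b at 0. Replicate 1 of CI_RFP, with 15 G2-M IDs, had 227600 CPM of cardiomyocyte and 14.0 CPM of leukocyte markers and no ptprc. Replicate 6, with 14 G2-M IDs, had 25310 CPM of cardiomyocyte and 4350 CPM of leukocyte markers, with ptprc at 62.7 CPM. High G2-M tubes thus included tubes almost without leukocyte markers and tubes with many. Fibroblast markers summed to 48.5 and 4.37 CPM in replicates 1 and 12, to 4715 and 7822 CPM in replicates 3 and 6, with 13 and 14 G2-M IDs, and to 0 and 29510 CPM in replicates 2 and 4, with 8 each. The tube with the most, replicate 11 at 43220 CPM, held 3 G2-M IDs. Endothelial markers summed to 297 CPM in replicate 1, 624.7 CPM in replicate 6 and 51.8 CPM in replicate 12. In CI_BFP, replicates 1 to 3 had 2981, 18070 and 10580 CPM of leukocyte markers. In the same order they had 1495, 299.5 and 583.8 CPM of endothelial and 12340, 3876 and 1035 CPM of fibroblast markers. Their G1-S sums were 595, 90.5 and 948 CPM. No CI_BFP library was at or under 1000 CPM of leukocyte markers, so the part of leukocytes in the MCM levels was not tested. The part of the other cell types was not tested either.

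**Figure D4:**
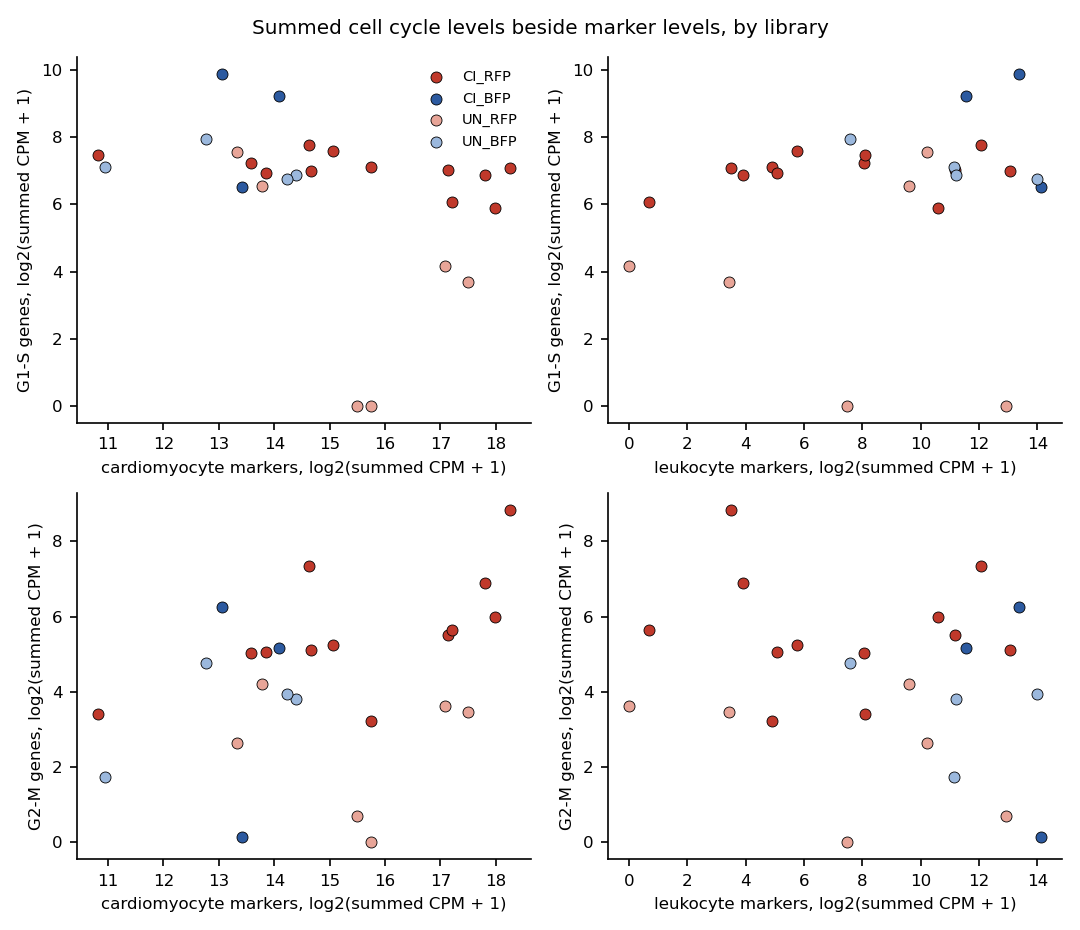
Summed level of the G1-S IDs (upper row) and of the G2-M IDs (lower row) against the summed level of cardiomyocyte markers (left) and leukocyte markers (right), each as log2(summed CPM + 1), with 1 point per library coloured by group. The highest G2-M sum, 454 CPM in CI_RFP, lies at the highest cardiomyocyte level and at 10.3 CPM of leukocyte markers, while the 2 highest G1-S sums are CI_BFP libraries with 2981 and 10580 CPM of leukocyte markers. Both axes are on TMM-scaled CPM and share the factor of a library, which was lowest, at 0.465, for the library with the highest G2-M sum.

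Chamber myosins also differed between tubes. The ventricular heavy chain vmhc exceeded the atrial heavy chain myh6 in 4 of 12 CI_RFP, 4 of 6 UN_RFP, 3 of 3 CI_BFP and 3 of 4 UN_BFP libraries. Within the tubes with more vmhc, the G2-M counts were 15, 8, 2 and 17 IDs in CI_RFP and 1, 1, 2 and 0 in UN_RFP. Within those with more myh6, they ran from 1 to 14 IDs in 8 CI_RFP libraries and were 2 and 1 in the 2 UN_RFP libraries.

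The tests asked, gene by gene, whether the groups differed beyond the spread between libraries. Of the 48 IDs, 34 passed the filter on low counts, 20 of G1-S and 14 of G2-M. An ID that is rare elsewhere passes that filter through the group where it is high, so counts over the 34 describe those IDs and not the whole set. In edgeR's quasi-likelihood test over 14853 genes, with a Benjamini-Hochberg adjusted p under 0.05 as the threshold, 0 of the 34 passed in each of the 4 pairwise comparisons and in the interaction of gate and injury. The spread was large, with a common biological coefficient of variation of 2.13. Fold changes are ratios of group mean CPM, and "at least" marks those where a group without a count was set at its limit of 3 counts.

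All 21 detected G2-M IDs, and 19 of the 25 detected G1-S IDs, had a higher mean level in red cells after injury than without it. None of those tested passed the adjusted edgeR test. Of these IDs, 18 of G2-M and 11 of G1-S had no count in UN_RFP, so their direction was fixed by detection. Of all 14853 genes tested, 12781 were detected in a larger share of CI_RFP than of UN_RFP libraries, and 745 in a smaller one. The share of all IDs with a higher mean level is not given here. Fibroblast markers were also higher in CI_RFP, at a mean of 10870 CPM against 706 CPM in UN_RFP, and their part in these differences was not tested. For CI_RFP against UN_RFP edgeR called 0.0269% of all genes and 0 of the 34 members at the adjusted threshold. At an unadjusted p under 0.05 it had 22 members higher in CI_RFP, where the share of all genes was 15.8%, and 1 lower, where the share was 1.11%. limma-voom called 3 members higher (pcna, rrm1 and ccnd1) at a background of 3.53% of all genes. DESeq2, run without the filter on low counts, called 10 members higher, at a background of 6.44%. That background is a share of the 13505 genes to which DESeq2 gave an adjusted p. DESeq2 backgrounds in the other comparisons are taken likewise, over 13505 to 14671 genes. How many of the 48 IDs had an adjusted p is not given here, and e2f1 and foxm1, without a count, could have none. Fisher's exact test of detection, added after the data were seen, called 0 here and in the other 3 pairwise comparisons. The smallest p this test can give is fixed by the number of libraries in the groups. After adjustment over all genes tested, a gene could pass only if many others reached so small a p too. These 0 calls therefore do not show that detection was alike. In CI_RFP against UN_RFP 5 members had an unadjusted exact p under 0.05: pcna, rrm1, ccnd1, cdk1 and anln. All were detected more often in CI_RFP, a direction in which 8.87% of all genes had such a p.

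All 14 tested G2-M IDs and 17 of the 20 tested G1-S IDs had a positive log2 fold change in edgeR's fit, against 10313 of 14853 genes. Their median log2 fold changes were 8.05 for G2-M and 4.01 for G1-S, beside 0.75 for all genes. With genes at 0 in a group set at their limit, the medians were 5.99 for G2-M, where 12 of 14 IDs were at the limit, 2.98 for G1-S and 0.76 for all genes. By limma-voom the median log2 fold changes were 2.80 for G2-M, 1.77 for G1-S and 1.72 for all genes. The members of smallest edgeR p were rrm1 and ccnd1 for G1-S. The level of rrm1 was at least 226-fold higher in CI_RFP (edgeR log2 fold change 9.88 ± 2.50, adjusted p = 0.0796), with 9 of 12 libraries above the 6 of UN_RFP, all at 0. That of ccnd1 was at least 214-fold higher (edgeR log2 fold change 9.81 ± 2.58, adjusted p = 0.0807), in 7 of 12 libraries.

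Leaving out 1 library at a time gave edgeR adjusted p-values from 0.0358 to 0.182 for rrm1 and from 0.0384 to 0.182 for ccnd1. Both passed without replicate 1, 2 or 3 of CI_BFP or without replicate 6 of UN_RFP. The CI_BFP libraries enter this comparison only through the shared fit. Over all genes, edgeR calls in CI_RFP against UN_RFP ran from 0 to 160 in these fits, against 4 with all libraries. Of the G1-S genes tyms followed in edgeR p, at least 99.2-fold higher, in 6 of 12 libraries. Among G2-M genes, ube2c was at least 166-fold higher in 5 of 12 libraries (edgeR log2 fold change 9.44 ± 2.82), cdk1 at least 147-fold in 7 and cdc20 at least 149-fold in 5. edgeR gave tyms and these 3 G2-M genes the same adjusted p, 0.0912. mki67 was at least 49.8-fold and plk1 at least 91.7-fold higher, each in 5 libraries, and ccna2 at least 175-fold higher in 3, again at an edgeR adjusted p of 0.0912. Several of these folds rested on replicate 12 of CI_RFP. Without it the CI_RFP mean was 3.31 CPM in place of 5.84 for tyms, 3.51 in place of 8.64 for cdk1, 4.43 in place of 8.78 for cdc20, 2.59 in place of 5.40 for plk1 and 1.75 in place of 10.3 for ccna2. ccnb2 had a mean of 17.2 ± 13 CPM (SD, n = 12) against 7.2 ± 6.71 (n = 6), a 2.39-fold difference with an edgeR adjusted p of 0.905.

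**Figure D5:**
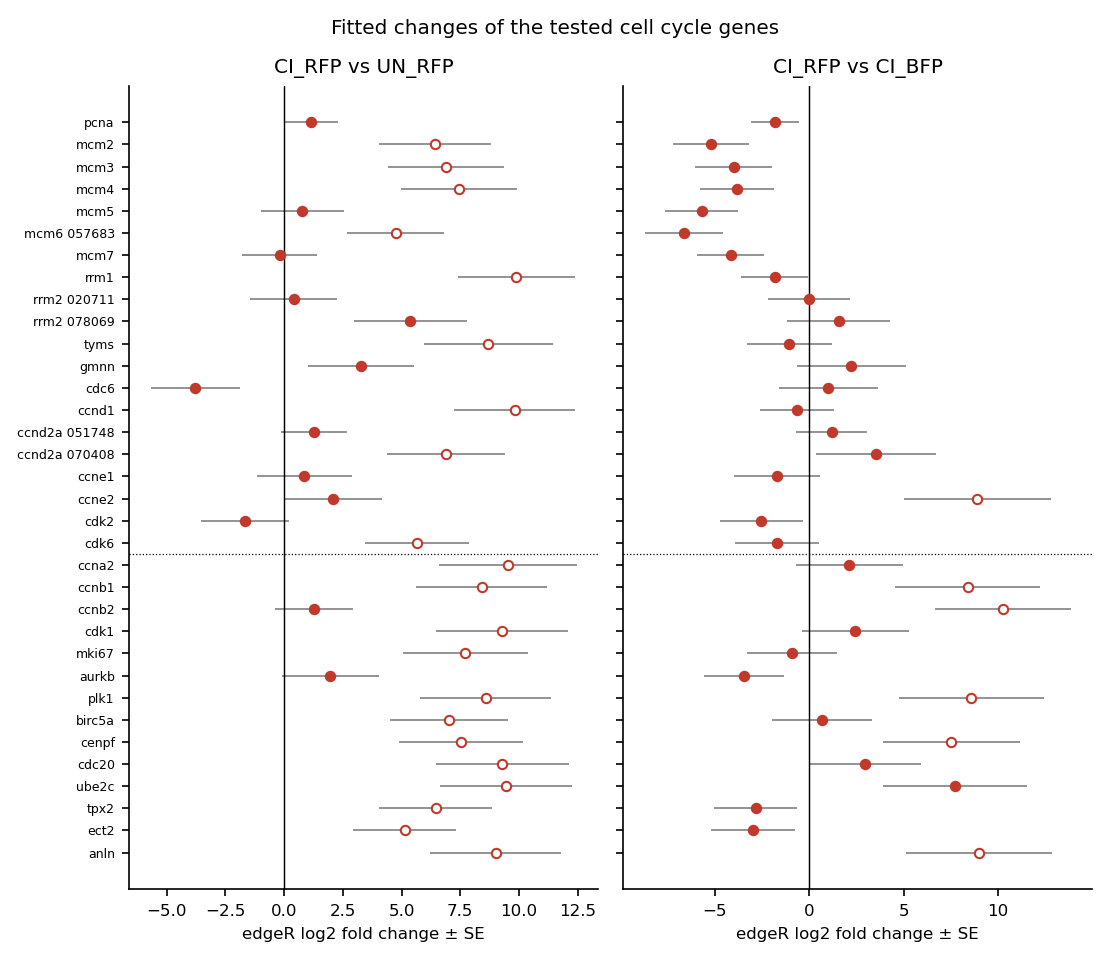
edgeR log2 fold change with its SE for the 34 tested IDs, in CI_RFP against UN_RFP (left) and CI_RFP against CI_BFP (right), with G1-S above and G2-M below the dotted line. Open symbols mark genes without a count in 1 of the groups, whose fitted value depends on the prior count and is no bound. On the left all 14 G2-M IDs lie above 0, and on the right 14 of 20 G1-S IDs lie below 0 and 10 of 14 G2-M IDs above.

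After cryoinjury, mean levels of the MCM genes were lower, and those of ccnb2 higher, in red than in blue cells. For CI_RFP against CI_BFP edgeR called 0% of all genes and 0 of the 34 members. At an unadjusted p under 0.05 edgeR had 7 members higher in CI_RFP, where the share of all genes was 7.65%, and 4 lower, where it was 1.68%. limma-voom called ccnb2 higher (adjusted p = 0.00036), at a background of 1.01% of all genes, and DESeq2 called ccnb1 and ccnb2 higher, at a background of 3.05%.

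The mean of mcm6 (ENSDARG00000057683) was 38.3 ± 36.4 CPM (SD, n = 3) in CI_BFP and 0.367 ± 0.665 (n = 12) in CI_RFP, a difference of 104.5-fold with an edgeR log2 fold change of -6.65 ± 2.06 and an adjusted p of 0.382. mcm5 was 52.2-fold and mcm2 37.5-fold lower in CI_RFP, each at an edgeR adjusted p of 0.524, and each absent from replicate 2 of CI_BFP. Without replicate 3 of CI_BFP the CI_BFP mean of mcm6 was 21.3 CPM in place of 38.3, that of mcm5 12.4 CPM in place of 58.5, and that of mcm2 6.24 in place of 45.2. ccnb2 was at least 161-fold higher in CI_RFP, in 12 of 12 libraries (edgeR log2 fold change 10.26 ± 3.59, adjusted p = 0.524). anln was at least 67.8-fold higher in 7 libraries and plk1 at least 50.5-fold in 5, also at an edgeR adjusted p of 0.524, and without replicate 12 of CI_RFP their means were 1.83 CPM in place of 7.24 and 2.59 CPM in place of 5.40. The median log2 fold change was -1.69 for G1-S and 2.70 for G2-M, beside 0.22 for all genes. With genes at 0 set at their limit it was -1.70, 2.71 and 0.22.

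In uninjured hearts, ccnd1 and rrm1 were at 0 in every red tube and present in 3 of 4 blue tubes each. Under 6000 genes were detected in 3 of 6 UN_RFP and in 0 of 4 UN_BFP libraries, and the part of this in the zeros was not tested. For UN_RFP against UN_BFP edgeR called 0% of all genes and 0 of the 34 members. At an unadjusted p under 0.05 edgeR had 11 members lower in UN_RFP, where the share of all genes was 11.2%, and 3 higher, where it was 6.56%. limma-voom called pcna lower (adjusted p = 0.0273), at a background of 1.27% of all genes, and DESeq2 called 6 members lower, at 3.85%. ccnd1, at 0 in all 6 red tubes, was at least 264.5-fold lower in UN_RFP (edgeR log2 fold change -10.11 ± 2.68, adjusted p = 0.115). rrm1, also at 0 in all 6, was at least 134.5-fold lower (edgeR log2 fold change -9.14 ± 2.50, adjusted p = 0.115). For ccnd1 the edgeR adjusted p ran from 0.0492 to 0.194 with 1 library left out, and it passed only without replicate 6 of UN_RFP. Over all genes, edgeR calls in this comparison ran from 0 to 170 in such fits. The UN_BFP mean of ccnd1 was 7.05 CPM in place of 15.6 without replicate 2, and that of rrm1 3.71 CPM in place of 7.92 without replicate 1.

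The other members of smallest p in that comparison each rested on 1 UN_BFP library: mcm6 on replicate 4, cdc20 and ect2 on replicate 1 and ccnb1 on replicate 3. They were at least 73.0, 54.1, 57.0 and 54.9-fold lower in UN_RFP, with edgeR adjusted p-values of 0.115, 0.116, 0.118 and 0.117. The median log2 fold changes were -0.54 for G1-S and -0.78 for G2-M, beside -0.43 for all genes. With genes at 0 set at their limit they were -1.50 over 17 G1-S IDs, -2.52 over 8 G2-M IDs and -0.51 over all genes with a fold. By limma-voom they were -0.34 for G1-S, 0.28 for G2-M and -1.01 for all genes, so both classes lay above all genes and G2-M changed sign. By DESeq2 each was 0.

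In blue cells, mcm2, mcm3 and tyms were found in 2 of 3 tubes after injury and in none without it. For CI_BFP against UN_BFP edgeR called 0% of all genes and 0 of the 34 members. At an unadjusted p under 0.05 edgeR had 9 members higher in CI_BFP, where the share of all genes was 5.51%, and 2 lower, where it was 3.57%. limma-voom called 0 members and 0.121% of all genes, with 6 members higher at an unadjusted p under 0.05, where the share of all genes was 6.36%, and DESeq2 called 3, 1 higher and 2 lower, at backgrounds of 1.44% and 1.77%. mcm2, mcm3 and tyms, all at 0 in UN_BFP, were at least 706, 423 and 188-fold higher in CI_BFP, each in 2 of 3 libraries and each with an edgeR adjusted p of 0.510. Without replicate 3 of CI_BFP the mean of mcm2 was 6.24 CPM in place of 45.2, that of tyms 6.91 in place of 12 and that of mcm4 16.7 in place of 35.3. mcm4, at 19.9, 13.5 and 72.4 CPM in CI_BFP and 4.77 CPM or 0 in UN_BFP, was the only member without overlap between these groups, which 2.97% of all genes showed in that direction. Its edgeR log2 fold change was 4.88 ± 3.0 with an adjusted p of 0.795.

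The G2-M members of smallest p in blue cells each rested on 1 library. ccnb2 was at least 22.3-fold lower after injury, through replicate 4 of UN_BFP, and ccna2 and cdk1 were at least 36.7-fold and 24.8-fold higher, through replicate 1 of CI_BFP, each with an edgeR adjusted p of 0.510. The median log2 fold changes were 2.73 for G1-S, 0.97 for G2-M and 0.00 for all genes. With genes at 0 set at their limit they were 2.90, 2.48 over 11 IDs and 0.07.

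Whether injury acted differently in the 2 gates was tested as an interaction. edgeR called 0% of all genes and 0 of the 34 members, with 7 members above 0 at an unadjusted p under 0.05, where the share of all genes was 8.53%, and 2 below 0, where it was 2.92%. limma-voom called 0 members and 0.0202% of all genes. At an unadjusted p under 0.05 limma-voom had 4 members above and 3 below 0, where the shares of all genes were 6.76% and 1.45%. DESeq2 called 4, all above 0, at a background of 4.08%. The smallest edgeR p-values were those of ccnb1 (log2 ratio of fold changes 16.25 ± 5.10, adjusted p = 0.253), plk1 (11.76 ± 4.29, adjusted p = 0.265) and cdc20 (10.79 ± 4.22, adjusted p = 0.306) for G2-M. For G1-S they were ccnd1 (9.45 ± 3.53, adjusted p = 0.280), the CCND2 ID ENSDARG00000070408 (12.13 ± 4.58, adjusted p = 0.285) and mcm5 (-8.96 ± 3.62, adjusted p = 0.320). A positive value means that the fitted ratio of injured to uninjured was larger in red than in blue cells. Values of this size can arise where a group has no count, as for all of these genes but mcm5, and they are no measure of fold. mcm5 had counts in every group, but in only 1 UN_RFP and 1 UN_BFP library. Its value ran from -11.24 to -3.41 with 1 library left out.

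Other genes of the same pathways, in 4 lists, gave 0 edgeR calls in all comparisons. As with the members, an ID that is rare elsewhere passes the filter on low counts through the group where it is high. Counts of direction over the tested IDs of a list therefore describe those IDs and not the whole list. Of 42 replication IDs, such as the polymerases and the sliding clamp loader, 36 were tested. In CI_RFP against CI_BFP 30 of these had a negative log2 fold change (median -2.05), beside 6639 of 14853 genes (median 0.22). In CI_BFP against UN_BFP 30 had a positive one (median 2.23), beside 7402 of 14853 genes (median 0.00). These 2 comparisons share the CI_BFP libraries. In CI_RFP against UN_RFP 22 were positive and 14 negative, and in UN_RFP against UN_BFP 17 were positive and 16 negative. pole, the catalytic subunit of DNA polymerase epsilon, was the member of smallest p in CI_RFP against CI_BFP and in CI_RFP against UN_RFP. It had no count in any CI_RFP library and was found in 2 CI_BFP libraries (mean 5.77 CPM) and 2 UN_RFP libraries (mean 4.66 CPM), at least 184-fold lower in CI_RFP than CI_BFP (edgeR adjusted p = 0.0937) and at least 149-fold lower than in UN_RFP (edgeR adjusted p = 0.0796). Most of its counts fell in 1 library of each of those groups, at 17.1 and 26.7 CPM. Of the polymerase delta subunits, pold1 was found in 6 CI_RFP and 2 CI_BFP libraries and in no uninjured library (at least 162-fold higher in CI_BFP than UN_BFP, edgeR adjusted p = 0.510). pold2 was found in 4 CI_RFP and 2 UN_BFP libraries and in no other (at least 247.5-fold lower in UN_RFP than UN_BFP, edgeR adjusted p = 0.115).

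Of 47 mitosis IDs, such as kinetochore and condensin genes, 31 were tested. In CI_RFP against UN_RFP 27 of these had a positive log2 fold change (median 3.11), beside 10313 of 14853 genes (median 0.75). At an unadjusted edgeR p under 0.05, 15 were higher in CI_RFP, where the share of all genes was 15.8%. The median library detected 14.5 of the 47 IDs in CI_RFP and 5.5 in UN_RFP. The part of the filter on low counts in these directions was not tested. The PRC1 ID ENSDARG00000005993, of a bundling protein of the central spindle, was found in 4 CI_RFP libraries, up to 56.2 CPM in replicate 12, and in no library of the other groups (edgeR adjusted p = 0.0912 against UN_RFP). A second ID of that name (ENSDARG00000100918) was found in 4 CI_RFP libraries and 1 UN_RFP library. smc4, a condensin subunit, was found in all 3 CI_BFP libraries (mean 31.3 ± 42.8 CPM) and in no UN_BFP library (edgeR adjusted p = 0.510). cks1b, a subunit of cyclin-dependent kinases, was found in 7 CI_RFP and 3 UN_BFP libraries, in 1 CI_BFP library and in no UN_RFP library, where it was at least 80.7-fold lower than in UN_BFP (edgeR adjusted p = 0.115).

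Of 27 IDs of cyclin-dependent kinase inhibitors, pocket proteins and p53 targets, 24 were tested. cdkn1a, the p21 inhibitor, was detected in all 12 CI_RFP libraries at 89.9 ± 64.2 CPM (SD, n = 12) and at 128 ± 181 CPM (n = 6) in UN_RFP, against 5.10 ± 4.53 (n = 3) in CI_BFP and 24.5 ± 8.70 (n = 4) in UN_BFP. It was 17.6-fold higher in CI_RFP than in CI_BFP (edgeR log2 fold change 4.14 ± 1.78, adjusted p = 0.524). cdkn1ca, the p57 inhibitor, was found in 5 CI_RFP libraries, up to 54.7 CPM, and in no other library (edgeR adjusted p = 0.0912 against UN_RFP). fzr1a, which activates the anaphase promoting complex in G1, was found in 1 of 6 UN_RFP and all 4 UN_BFP libraries (edgeR adjusted p = 0.272). The pocket protein gene rb1 had means of 17.4 CPM in CI_BFP and 0.150 CPM in UN_BFP (edgeR adjusted p = 0.512), and rbl2a was found in 9 CI_RFP, 3 UN_RFP and 3 UN_BFP libraries and in no CI_BFP library (interaction, edgeR adjusted p = 0.466). Of 21 IDs of E2F, DREAM and MYB factors, 16 were tested. The TFDP1 ID ENSDARG00000016304, of a dimerisation partner of E2F proteins, was found in 8 of 12 CI_RFP, 3 of 3 CI_BFP and 2 of 4 UN_BFP libraries and in no UN_RFP library, where it was at least 119-fold lower than in CI_RFP (edgeR adjusted p = 0.0912). The second ID of that name (ENSDARG00000019293) was found in 11 of 12 CI_RFP and 1 of 6 UN_RFP libraries, an 11.8-fold difference of means with an edgeR adjusted p of 0.498. The repressor e2f7 was found in 3 CI_RFP libraries and 1 UN_RFP library, up to 3.20 CPM, and lin9, of the DREAM complex, in 2 of 3 CI_BFP and no UN_BFP library (edgeR adjusted p = 0.510).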

How the data were processed

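Per the labels, the authors sorted 20 cells into each tube, prepared Smart-seq2 libraries (full-length cDNA, no molecular identifiers), and used FastQC 0.11.5, HISAT2 2.1.0, featureCounts 1.6.0 and the GRCz11 build. The deposited files are named in the manner of another aligner's output, so which tool made the counts is not settled. They hold, as 1 file for each of 25 libraries, raw counts per gene as deposited by the authors. No source used here gives the strand setting or the annotation release. No promoter or protein sequences were used.

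Members, gene lists and tests were chosen with earlier results of these data known. Of 31901 IDs, 29178 had a name. Group and gate came from the labels, and replicate numbers follow the order of deposition. Genes were kept with filterByExpr, scaled by TMM and tested in edgeR 4.0.16 (R 4.3.3; quasi-likelihood, robust, two-sided) with 4 group means fitted to all 25 libraries. The SE is the log2 fold change divided by the square root of F. No 2 libraries were identical.

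Alternatives were limma-voom 3.58.1, DESeq2 1.42.0, other scaling and filters, covariates, subsets of libraries and Fisher's exact test of detection (scipy 1.17.1). Named are, in each comparison and phase class, the 3 members of smallest p, the 1 of smallest p in each pathway list, and a fixed set of 16 well-known members; other members are given by their values. The procedure was also run on simulated counts, drawn from each gene's mean over all libraries, with large changes put only on genes above a minimum expected count. Its outcome is not given here. The run does not show how many true changes would be called among members without a count in most libraries.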

Additional observations from a re-analysis of the deposited data

Results flagged for a closer look

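For the groups of 4 to 10 libraries, UN_RFP and UN_BFP, levels of part of the members were searched for a library far from the rest. Dixon's test was used at its 95% value, which chance alone flags in about 1 of 20 groups. Not every member was covered. Single detections of others, such as ccne2 at 9.5 CPM in replicate 4 of UN_RFP, are not among the flags. It flagged 15 of 31 sets of values, and in 14 of these all other libraries of the group were at 0, where any single detection is flagged. The exception was pcna in UN_RFP, at 101.8 CPM in replicate 6 and 31.0 CPM in replicate 3. In UN_RFP the other flags among the sets searched were mcm5 at 3.86 CPM in replicate 6 and both rrm2 IDs in replicate 3. The rrm2 IDs were at 2.09 CPM (ENSDARG00000020711) and 0.0746 CPM (ENSDARG00000078069).

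In UN_BFP, replicate 4 was flagged for ccnb2 at 9.53 CPM, mcm6 (ENSDARG00000057683) at 17.2 CPM, mki67 at 3.95 CPM, plk1 at 0.465 CPM, and mcm5 and aurkb at 0.233 CPM each. This library also held 16350 CPM of leukocyte markers, the most of its group, whose part was not tested. Replicate 1 of UN_BFP was flagged for ect2 at 13.4 CPM, cdc20 at 12.7 CPM, rrm2 (ENSDARG00000078069) at 5.22 CPM and cdk6 at 2.37 CPM, and replicate 3 for ccnb1 at 12.9 CPM.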

How the results depend on the processing

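No paired analysis was possible because replicate numbers follow the order of deposition and tie no libraries together. Of 170 recounts of called members, 155 gave the same count as edgeR's 0. limma-voom gave 1, 1 and 3 in CI_RFP vs CI_BFP, UN_RFP vs UN_BFP and CI_RFP vs UN_RFP, and DESeq2 gave 2, 6, 10, 3 and 4 in the 5 comparisons. Without the filter CI_RFP vs UN_RFP had 6 (ccna2, ccnd1, cdc20, cdk1, rrm1 and ube2c), where 513 of 22759 genes were called, and with the vmhc to myh6 ratio as a covariate UN_RFP vs UN_BFP had 3 (ccnd1, ect2 and rrm1), where 148 of 14853 genes were called. Leaving out 1 library gave 0 to 1 in UN_RFP vs UN_BFP, 0 to 2 in CI_RFP vs UN_RFP and 0 in the others, while calls over all genes ran from 0 to 170 and from 0 to 160 in the first 2.

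In CI_RFP vs UN_RFP the median log2 fold change of G1-S was 1.77 by limma-voom, 1.64 by DESeq2 and 1.48 over 6 IDs with those groups alone, and that of G2-M was 2.80, 5.54 and 1.2, the last from 1 ID. The medians of all genes were 1.72 by limma-voom and 0.57 by DESeq2, so by limma-voom G1-S stood close to all genes. In UN_RFP vs UN_BFP the 1 G2-M ID left with those groups alone gave 1.59. The G2-M median there was -0.78 by edgeR and 0.28 by limma-voom, a change of sign. For the interaction the G2-M median was 1.97 by limma-voom and 2.05 by DESeq2, beside 1.14 and 0.06 for all genes. The G1-S median of the interaction changed sign, from 0.65 by edgeR to -2.03 by limma-voom and -0.73 by DESeq2. Size factors in place of TMM moved the median of all genes in CI_RFP vs CI_BFP from 0.22 to -0.39, with G1-S at -2.29 and G2-M at 1.6, and in CI_BFP vs UN_BFP from 0.00 to 0.46. The cause of these shifts was not tested.

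The median G1-S sum of UN_RFP was 92.9 CPM without libraries under 6000 detected genes, against 14.5 CPM. As the median over IDs of log2(CPM + 1), the typical library stood at 0 in every group for both classes, except 1.31 for G1-S in CI_BFP. The interaction of tfdp1a (ENSDARG00000016304) was -0.0181 by limma-voom, opposite to edgeR. ccna2, ccnb2 and cdk1 gave no value in CI_BFP vs UN_BFP where the 1 library of those groups that held them was left out. The same was so for ccnb1, cdc20 and mcm6 (ENSDARG00000057683) in UN_RFP vs UN_BFP. No CI_BFP comparison could be made at or under 1000 CPM of leukocyte markers.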
